A study of Mus musculus with 7 samples.

Results

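Slmap and 8 genes for subunits of the STRIPAK scaffold were followed through 7 whole mouse embryos at E11.5, 3 SLMAP3 KO and 4 WT. The genes were taken by their symbols, and Slmap, Sike1, Fgfr1op2, Strn, Strn3, Strn4, Strip2, Mob4 and Ppp2r1a were each found in 1 row, giving 9 of the 25461 genes listed. The level of a gene is given as FPKM, which stands for fragments per kilobase of transcript and is scaled to depth. FPKM are per length, so that levels of different genes can be set side by side.

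The embryos were of the B6C3F1 strain, and the labels name no treatment. KO embryos were homozygous for an Slmap allele that lacks exon 3, which had been flanked by LoxP sites and removed with CMV-cre, a Cre that acts in the whole animal. Cre was then bred out and heterozygotes were crossed, so that KO and WT embryos should both lack Cre and the deletion is global. The deletion was designed to remove SLMAP3, the large isoform, and to leave SLMAP1 and SLMAP2. Tails were used for genotyping, and RNA of the remaining body of 1 embryo went into each library.

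SLMAP is a tail-anchored protein of the sarcolemma, the endoplasmic reticulum, the outer nuclear membrane and the centrosome, and its longer isoforms carry a forkhead-associated (FHA) domain that binds phosphorylated partners. In STRIPAK, the striatins hold the phosphatase PP2A through its scaffold subunit, and SIKE1 or FGFR1OP2 link SLMAP to the striatins. SLMAP recruits the Hippo kinases MST1 and MST2 to this phosphatase, which dephosphorylates them and so restrains Hippo signaling.

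Before the genes are described, the embryos themselves need a remark, since they differed in more than genotype. Afp, the fetal liver's main serum protein gene, stood at 255, 5.18 and 308 FPKM in the KO embryos KOAC8-6, KOAC10-5 and KOAC10-8. In the WT embryos KOAC8-1, KOAC10-7, KOAC9-1 and KOAC10-2 it stood at 376, 1.30, 278 and 2.49 FPKM. KOAC10-5, KOAC10-7 and KOAC10-2 therefore nearly lacked liver transcripts, and values without them are given beside the main result. Xist, the transcript of the inactive X chromosome, was near 0 in KOAC10-8 (KO) and KOAC9-1 (WT), at 0.330 and 0.0853 FPKM, and between 158 and 181 FPKM in the other embryos. Relative depth, read from the steps between low FPKM values, lay between 0.81 and 1.21 of the average. The sums of FPKM lay between 770063 and 861448 per embryo. Liver, skeletal muscle, heart, neural and erythroid markers were all detected in these whole embryos, whereas the 3 of 5 trophoblast markers that were matched by symbol (Prl3b1, Tpbpa and Gcm1) had a mean of at most 0.317 FPKM.

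Slmap (ENSMUSG00000021870) lies at chr14:26413168-26534931 on the minus strand of GRCm38, with 16 transcripts in GENCODE M21, of which 9 are coding. The name exon 3 fits 2 different exons. In the longest transcript, Slmap-203, exon 3 is the exon of 148 bases at chr14:26482819-26482966, which is exon 2 of Slmap-212. In Slmap-212, exon 3 is the exon of 73 bases at chr14:26473899-26473971, which is exon 4 of Slmap-203. The coding transcripts Slmap-201, Slmap-202 and Slmap-204 also give the number 3 to the exon of 73 bases. Only Slmap-203 gives it to the exon of 148 bases. The sources used here do not give the coordinates of the LoxP sites, so both exons are shown, 5′ to 3′ on the strand of the gene and each with 30 bases of its neighbouring exons. Capitals mark the exon and lower case its neighbours.
exon 3 of Slmap-203: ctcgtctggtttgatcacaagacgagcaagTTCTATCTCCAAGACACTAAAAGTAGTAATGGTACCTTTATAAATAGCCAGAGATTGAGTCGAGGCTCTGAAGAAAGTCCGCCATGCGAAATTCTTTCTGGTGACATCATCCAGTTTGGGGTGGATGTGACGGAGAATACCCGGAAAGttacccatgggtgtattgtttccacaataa
exon 3 of Slmap-212: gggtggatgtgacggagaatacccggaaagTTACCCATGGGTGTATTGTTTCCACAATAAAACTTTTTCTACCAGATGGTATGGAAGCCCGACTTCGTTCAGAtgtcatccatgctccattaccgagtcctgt

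Both exons are wholly coding, and both have a length that leaves 1 base over when divided by 3, so that removal of either alone would shift the reading frame. The transcripts fall into 2 kinds. The 5 coding transcripts of 3962 to 5476 bases hold both exons, and the 4 coding transcripts of 551 to 3796 bases hold neither whole. None of the 7 non-coding transcripts holds either exon whole. The deposited table gives 1 value per gene and none per transcript, so that the isoforms of Slmap cannot be told apart in it, and fragments from outside the deleted exon count in KO embryos too.

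**Figure D1:**
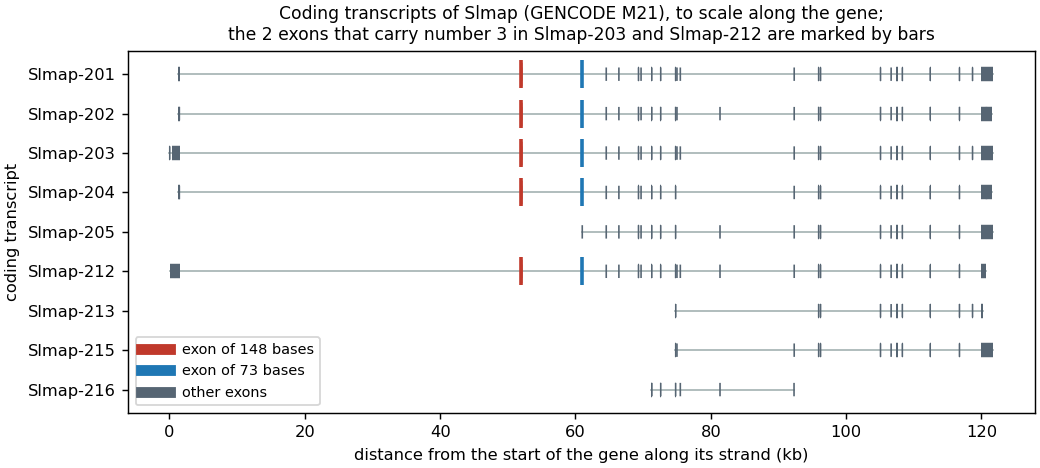
The 9 coding transcripts of Slmap in GENCODE M21, drawn along the strand of the gene in kb from its start, with each exon as a mark. The exon of 148 bases and the exon of 73 bases are coloured where whole. They are seen together in 5 transcripts, and neither is whole in the other 4, which start further along the gene. Of these 4, Slmap-205 starts within the exon of 73 bases and holds the rest of it.

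Slmap, the targeted gene, was lower in every KO embryo than in every WT embryo. Its level was 19.6, 16.0 and 16.6 FPKM in the KO embryos KOAC8-6, KOAC10-5 and KOAC10-8. The WT embryos KOAC8-1, KOAC10-7, KOAC9-1 and KOAC10-2 had 31.2, 23.9, 29.1 and 22.8 FPKM. The KO range ends below the lowest WT embryo, KOAC10-2, and the transcript was far from absent. The mean was 17.4 ± 1.92 FPKM in KO (SD, n = 3) and 26.7 ± 4.04 FPKM in WT (SD, n = 4), so that KO embryos kept 65.1% of the WT level. The order of the embryos does not go against their genotype labels, but a value per gene cannot check the deletion of an exon.

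The log2 fold change of Slmap, KO minus WT on the log2(FPKM + 1) scale, was -0.59 with an SE of 0.13 and a 95% confidence interval from -0.88 to -0.29. Across the 16095 genes whose mean reached 1 FPKM, limma gave Slmap an unadjusted p of 0.00221, and 128 genes had a p at or below it. After Benjamini-Hochberg adjustment over all genes tested the p was 0.278, so that Slmap did not pass the threshold of 0.05. Taken alone, the difference in mean FPKM had p = 0.0286 in an exact two-sided permutation test, the smallest value that 3 against 4 embryos can give. Ranges as separate as these, with KO lower, were found for 5.98% of all genes tested. A log2 fold change as low as that of Slmap was found for 254 genes, or 1.58%.

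Slmap was lower in KO within each subset of embryos as well. Among the 4 embryos with the number 10 in their label, 2 of each genotype, the log2 difference of means was -0.49, and between the single KO and WT embryos numbered 8 it was -0.65. The only embryo numbered 9 was WT, so that no value can be had there. Without the 3 embryos that nearly lacked liver transcripts the log2 fold change was -0.71, and among those 3 it was -0.52.

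Markers of other cell types also differed in level between the KO and WT embryos, although none passed the adjusted threshold. The marker lists were chosen with earlier results of these data known. Markers of 1 cell type need not be independent of each other, and no test was run on the counts of markers. In bulk samples, fewer cells of a type and less RNA per cell cannot be told apart. Of 9 tested skeletal muscle markers, 8 had an unadjusted p under 0.05 and all 8 were lower in KO, against 6.19% of all genes tested with such a p and a lower level in KO. The median log2 fold change of the 9 was -1.004. The summed level of the 10 markers was 154, 152 and 86.1 FPKM in the KO embryos (130.9 ± 38.8, SD, n = 3). The WT embryos, in the same order as above, had 287, 266, 385 and 233 FPKM (293 ± 65.3, SD, n = 4). Mylpf, a myosin light chain of fast muscle, was the most abundant at a mean of 68.1 FPKM, and no marker was at 0 throughout.

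Neural progenitor markers lay on the other side. Of 7 tested, 6 had an unadjusted p under 0.05 with a higher level in KO, against 5.27% of all genes tested, and the median log2 fold change was 0.44. Their summed level was 765, 834 and 881 FPKM in KO embryos (827 ± 58.3, SD, n = 3) and 684, 693, 741 and 781 FPKM in WT embryos (724 ± 45.0, SD, n = 4), and the groups overlap. Fabp7, the most abundant gene at a mean of 364.9 FPKM, makes up much of this sum and was the 1 marker of the 7 that was not higher in KO, with a log2 fold change of -0.02. Of 6 erythroid markers, led by Hbb-y, 2 were lower and none higher at an unadjusted p under 0.05 (median log2 fold change -0.39), beside 6.19% lower and 5.27% higher of all genes tested. Hbb-bh1, an embryonic beta-like globin, had an estimate on the other side, 0.51. Of 8 heart markers 2 were higher at such a p (median 0.21). Among 7 neuron markers (median -0.10) and 8 liver markers (median 0.24) there was none with such a p. The liver median pools embryos with liver transcripts and embryos that nearly lacked them. Among the embryos with liver transcripts alone, every liver marker was lower in KO, with log2 differences from -0.20 for Afp to -1.23 for Ahsg. With the log2 sum of the muscle markers as a covariate, added after seeing the data, the log2 fold change of Slmap was -0.29 (95% confidence interval -0.88 to 0.31). With that of the neural progenitor markers, also added later, it was -0.36 (-0.78 to 0.06). The KO and WT sums of the muscle markers do not overlap, so that this covariate and genotype can hardly be told apart in 7 embryos. With it the SE of Slmap rose from 0.13 to 0.24, and the genes with an unadjusted p under 0.05 fell from 1846 to 483 of all tested.

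**Figure D2:**
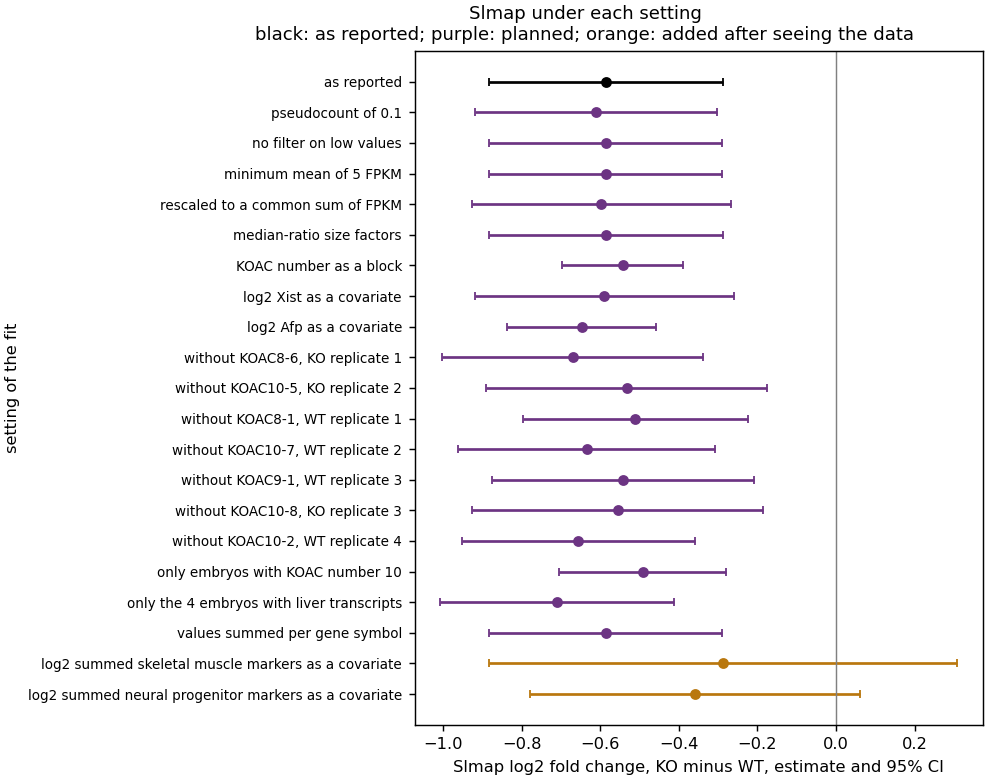
Log2 fold change of Slmap, KO minus WT on the log2(FPKM + 1) scale unless the setting changes it, with 95% confidence intervals from limma for the reported fit, 18 other fits and 2 added later. Every estimate lies below 0, from -0.71 to -0.29, and only the intervals of the fits with a marker sum as covariate cross 0.

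SIKE1 and FGFR1OP2 are paralogs that bridge SLMAP and the striatins, and the comparison asks whether these partners of SLMAP differed in KO embryos. Sike1 (chr3:102995708-103008459, plus strand) had 58.9, 52.0 and 58.8 FPKM in KO and 54.5, 48.9, 60.7 and 45.4 FPKM in WT embryos. These ranges overlap, since the WT embryo KOAC9-1 is the highest of all. Its log2 fold change was 0.12 (SE 0.10, 95% confidence interval -0.13 to 0.36), with an adjusted p of 0.686 by limma. The estimate moved to 0.05 without KOAC10-2, to 0.19 without KOAC9-1 and to 0.03 in the 4 embryos with liver transcripts. Fgfr1op2 (chr6:146577203-146599198, plus strand) had 41.7, 36.1 and 39.1 FPKM in KO and 41.2, 37.4, 40.4 and 36.2 FPKM in WT embryos. KO and WT embryos were thus interleaved, with a log2 fold change of 0.01 (SE 0.07, -0.16 to 0.17) and an adjusted p of 0.983 by limma.

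Sike1 made up 59.2% ± 0.792 of the summed FPKM of the pair in KO (SD, n = 3) and 57.3% ± 1.89 in WT (SD, n = 4). The difference had p = 0.171 in an exact permutation test, and 0.514 after adjustment over the 6 shares compared here. It was 1.89 percentage points over all embryos, 3.41 in the embryos numbered 10 and 0.80 in the 4 embryos with liver transcripts. Relative to the pair, Slmap stood at 0.182 ± 0.0127 in KO (SD, n = 3) and 0.292 ± 0.0228 in WT (SD, n = 4). That ratio was added after seeing the data, and its groups do not overlap (p = 0.0286 in the exact permutation test, as low as it can be). Slmap itself enters the ratio, which is thus no evidence apart from the Slmap values above.

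The striatins are the backbone of STRIPAK, WD-repeat proteins that also act as regulatory subunits of PP2A. Strn (chr17:78649913-78737196, minus strand) was the least abundant, with 8.91, 7.54 and 7.87 FPKM in KO and 7.67, 6.63, 7.69 and 6.62 FPKM in WT embryos. Only KOAC10-5 among the KO embryos lay within the WT range, and the log2 fold change was 0.16 (SE 0.09, 95% confidence interval -0.04 to 0.36, adjusted p = 0.517 by limma). Without KOAC8-6 this estimate was 0.10, and the difference was 0.19 both among the embryos numbered 10 and between those numbered 8. Strn3 (chr12:51609632-51691897, minus strand) had 35.9, 35.7 and 35.6 FPKM in KO and 35.8, 37.6, 33.3 and 33.7 FPKM in WT embryos. The 3 KO embryos lay within 1 narrow band in the middle of the WT embryos, at 35.7 ± 0.153 FPKM (SD, n = 3), and the log2 fold change was 0.03 (SE 0.05, -0.10 to 0.15, adjusted p = 0.886 by limma). Strn4 (chr7:16815889-16840931, plus strand) was the most abundant, with 81.7, 83.8 and 93.0 FPKM in KO and 89.0, 77.3, 83.5 and 79.6 FPKM in WT embryos. Its ranges overlap, and its log2 fold change was 0.06 (SE 0.07, -0.10 to 0.23, adjusted p = 0.739 by limma). This estimate was 0.01 without KOAC10-8 and 0.10 without KOAC8-1, and the difference was 0.17 among the embryos numbered 10 but -0.12 between those numbered 8.

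In the striatin pool, Strn4 made up 66.2% ± 1.79 of the summed striatin FPKM in KO (SD, n = 3) and 66.1% ± 1.68 in WT (SD, n = 4). Strn3 made up 27.5% ± 1.25 and 28.2% ± 1.91, and Strn 6.25% ± 0.694 and 5.74% ± 0.328. The difference in the Strn share, 0.514 percentage points, was 0.117 without KOAC8-6. In exact permutation tests these shares had p = 0.943 for Strn4, p = 0.714 for Strn3 and p = 0.229 for Strn, or 0.943, 0.857 and 0.514 after adjustment.

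What did differ was the amount of Slmap per striatin. In KO embryos, Slmap FPKM divided by the summed FPKM of the 3 striatins was 0.155, 0.126 and 0.122. WT embryos had 0.235, 0.197, 0.233 and 0.190, so that the highest KO value was under the lowest WT value. The mean was 0.134 ± 0.0180 in KO (SD, n = 3) and 0.214 ± 0.0239 in WT (SD, n = 4), and the KO ratio was 62.7% of the WT ratio. The difference of -0.0796 had p = 0.0286 in an exact two-sided permutation test. This p is the smallest that 7 embryos can give. Slmap itself enters the ratio, so that it is no evidence apart from the values above.

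**Figure D3:**
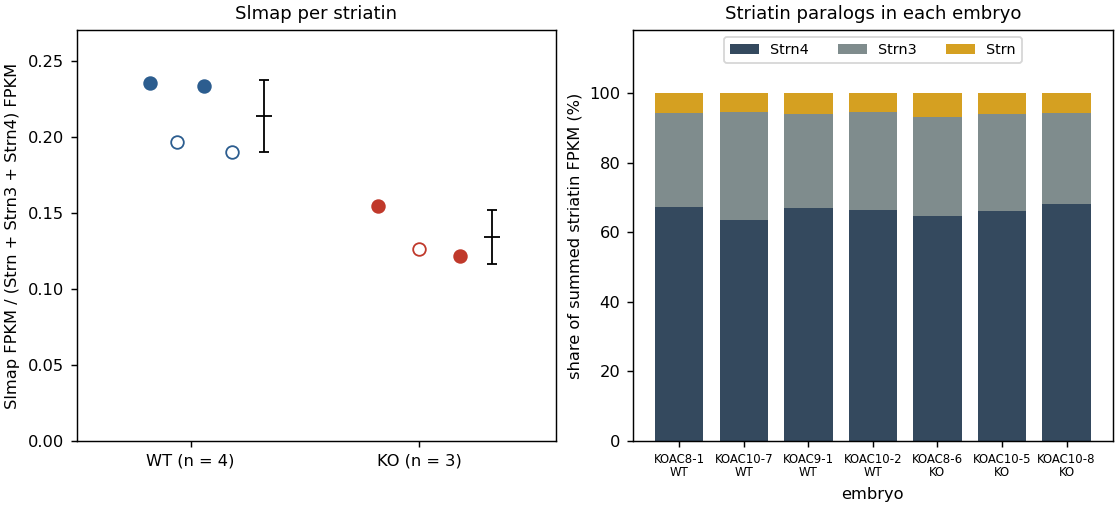
Left, Slmap FPKM divided by the summed FPKM of Strn, Strn3 and Strn4 in each embryo, with mean ± SD; open points are embryos with Afp under 6 FPKM, and the KO points from 0.122 to 0.155 lie below the WT points from 0.190 to 0.235. Right, the share of each striatin in their summed FPKM (%) for each embryo as a stacked bar, in which Strn4 takes between 63.6% and 68.2% of every bar.

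The remaining scaffold genes are Ppp2r1a, Mob4 and Strip2. Ppp2r1a (chr17:20945311-20965916, plus strand) encodes the PP2A scaffold subunit A alpha, the platform on which catalytic and regulatory subunits meet. It was the most abundant of the 9, with 149.5, 160.3 and 158 FPKM in KO and 150.3, 159.5, 161 and 158 FPKM in WT embryos. The lowest KO and the lowest WT embryo were both numbered 8, and the log2 fold change was -0.01 (SE 0.05, 95% confidence interval -0.13 to 0.10, adjusted p = 0.937 by limma). Its share in the sum with its paralog Ppp2r1b was 82.5% ± 0.318 in KO (SD, n = 3) and 83.1% ± 1.37 in WT (SD, n = 4; exact permutation test, p = 0.486, adjusted 0.729). The difference in this share, -0.603 percentage points, was -1.27 without KOAC8-1 and -0.240 without KOAC9-1.

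Mob4 (chr1:55131231-55154899, plus strand) encodes phocein, the MOB protein of STRIPAK. Its KO embryos were spread more widely, at 53.9, 59.1 and 69.2 FPKM, than the WT embryos at 60.0, 63.8, 56.3 and 55.6 FPKM. KOAC8-6 was the lowest embryo and KOAC10-8 the highest, and both are KO. The log2 fold change was 0.04 (SE 0.09, 95% confidence interval -0.18 to 0.26, adjusted p = 0.905 by limma). Strip2 (chr6:29917012-29959681, plus strand), a striatin-interacting protein, had a low level, at 0.788, 0.956 and 0.842 FPKM in KO and 1.11, 1.04, 0.973 and 0.848 FPKM in WT embryos. Its mean of 0.937 FPKM left it under the filter, and it was not tested in the reported fit. Without the filter its log2 fold change was -0.10 (adjusted p = 0.687 by limma).

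**Figure D4:**
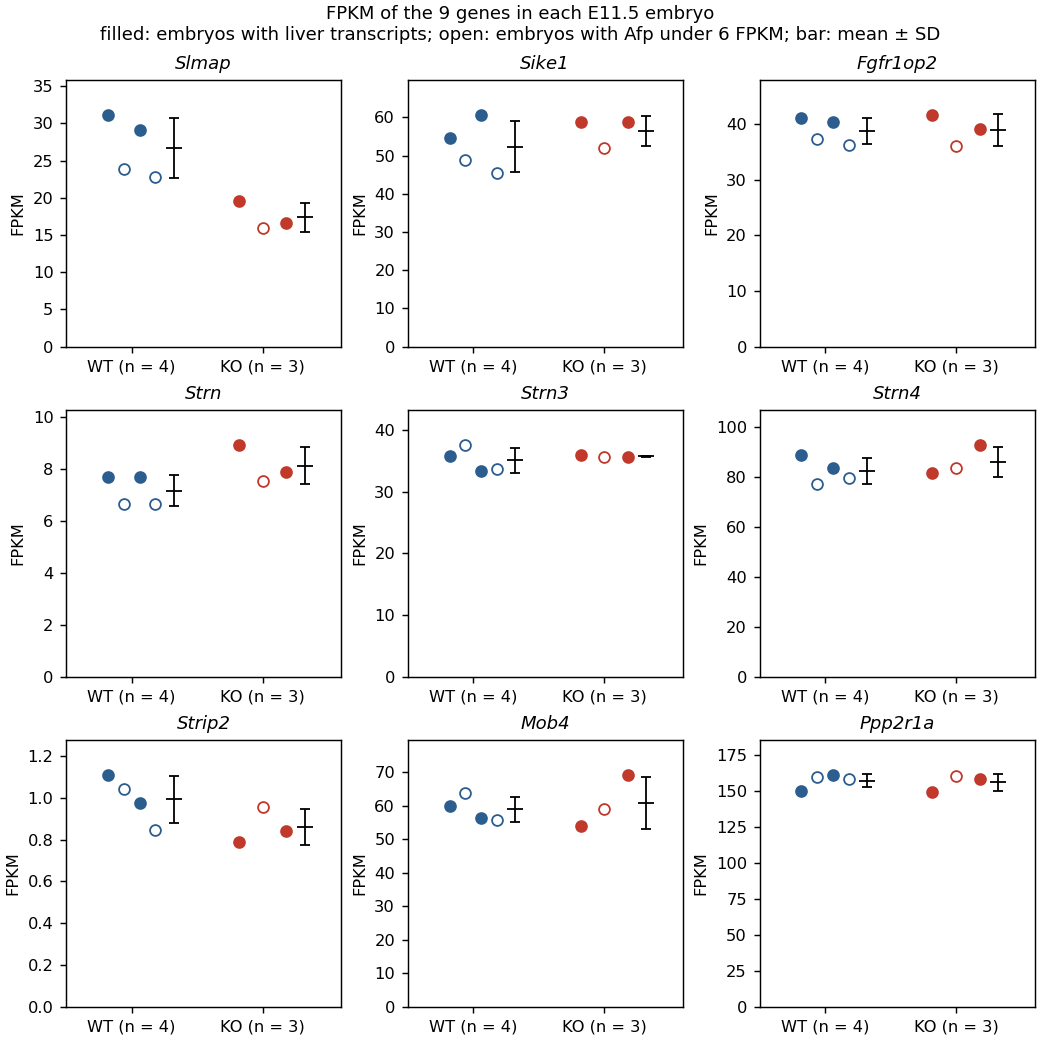
FPKM of each of the 9 genes in the 4 WT and 3 KO embryos, each panel with its own axis from 0 and with mean ± SD; filled points are embryos with liver transcripts and open points embryos with Afp under 6 FPKM. The KO points lie below all WT points for Slmap, and the ranges of KO and WT points overlap for the other 8 genes.

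Of the 9 genes, 8 could be tested. None had an adjusted p under 0.05, a threshold that 0.0373% of all genes tested passed, and 1 gene, Slmap, had an unadjusted p under 0.05, as did 11.5% of all genes tested. With the number in the embryo label as a block, where KOAC9-1 stands alone, 3 of the 8 had such a p, against 8.69% of all genes tested. They were Slmap, Strn (0.19, 95% confidence interval 0.04 to 0.34) and Sike1 (0.19, 0.004 to 0.37), with adjusted p-values by limma of 0.267, 0.565 and 0.569. The 7 other genes that were tested had log2 fold changes between -0.01 and 0.16 with a median of 0.04, beside a median of 0.01 over all genes tested. For comparison, 79.5% of all genes tested lay within 0.2 of 0. The 95% confidence intervals of these 7 reached no further than -0.18 and 0.36 in the fit without the block.

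Counting error was smaller than the spread between embryos for Slmap. The deposited table lists a mean over the embryos of 3590 normalized counts for Slmap, for which the square root of the count gives 1.67%, while the WT embryos varied by 15.1% (SD over mean). For the other genes the mean ran from 260 normalized counts for Strip2, with a counting error of 6.20% beside a WT spread of 11.2%, to 22078 for Ppp2r1a. Ppp2r1a also varied least among WT embryos, by 3.08%, against a median of 8.32% over all genes tested. Strn3, Fgfr1op2, Strn4 and Mob4 lay between 5.70% and 6.42% in WT, and Sike1 varied by 12.8%.

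From the highest to the lowest mean, the genes ran Ppp2r1a, Strn4, Mob4, Sike1, Fgfr1op2, Strn3, Slmap, Strn and Strip2. Neighbours in this order had separate ranges over the 7 embryos, except for Mob4 with Sike1 and Fgfr1op2 with Strn3. Mob4 exceeded Sike1 in 5 of 7 embryos, and Fgfr1op2 exceeded Strn3 in 6 of 7. Ppp2r1a stood 1.87 times as high as Strn4, and Strn 8.08 times as high as Strip2. Slmap was also below Strn3 in all 7 embryos, but the nearest values, 31.2 FPKM for Slmap in a WT embryo and 33.3 FPKM for Strn3, were close.

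In both genotypes, 4 of the 8 genes tested were lower in the embryos that nearly lacked liver transcripts. Slmap, Sike1, Fgfr1op2 and Strn were each lower in KOAC10-5 than in the other KO embryos, and lower in KOAC10-7 and KOAC10-2 than in the other WT embryos. The same order was found for 11.5% of all genes tested and the reverse order for 7.75%. This order was noticed after the values were seen, and no test was run on it. The embryos that nearly lacked liver transcripts are all numbered 10. Within each genotype, the 4 genes were also lower in every embryo numbered 10 than in the others. For Sike1 in KO this was by little, 58.82 against 58.85 FPKM. KOAC10-8, the embryo numbered 10 with liver transcripts, had 16.6 FPKM of Slmap and 7.87 of Strn. These were nearer to KOAC10-5 (16.0 and 7.54) than to KOAC8-6 (19.6 and 8.91). Its Fgfr1op2, 39.1 FPKM, lay between 36.1 in KOAC10-5 and 41.7 in KOAC8-6. Among WT embryos the orders by liver transcripts and by number are the same and cannot be told apart. No share over all genes was computed for the order by number. Across the 7 embryos, which share those differences, Pearson's r on the log2(FPKM + 1) scale was 0.83 between Sike1 and Strn, 0.78 between Sike1 and Fgfr1op2, and 0.75 between Fgfr1op2 and Strn. Slmap had an r of 0.42 with Fgfr1op2 and between -0.28 and 0.00 with the other 6 genes tested. These r pool KO and WT embryos, whose Slmap means differ (17.4 and 26.7 FPKM), and no r within a genotype was computed. Slmap and Strn had a pooled r of -0.22. Yet their order was the same among the KO embryos, and KOAC10-2 and KOAC10-7 were the lowest WT embryos for both.

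Of all genes tested, Prx, Slc25a38, Add1, Sec11c and Ufl1 had the pattern over the 7 embryos most like that of Slmap, with r from 0.97 to 0.99. Prx encodes periaxin of myelinating Schwann cells, Add1 the membrane skeleton protein adducin 1, Slc25a38 a mitochondrial glycine carrier, Sec11c a signal peptidase subunit and Ufl1 a UFM1 ligase. Each was lower in every KO embryo than in every WT embryo, as were 5.98% of all genes tested, but an order like that of Slmap is what they were chosen for. The size of the difference was smaller than for Slmap in all 5, from -0.30 for Slc25a38 to -0.07 for Ufl1 on the log2 scale, with adjusted p-values from 0.293 to 0.555 by limma. High values of r can be found by search among so many genes over 7 embryos, and these are given as a description.

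Of 8 other STRIPAK subunits tested, none had an unadjusted p under 0.05, beside 11.5% of all genes tested. Their log2 fold changes ran from -0.49 to 0.15 with a median of 0.03. The PP2A catalytic subunits Ppp2ca and Ppp2cb had log2 fold changes of 0.03 and 0.02, and the scaffold paralog Ppp2r1b one of 0.05. Pdcd10, the adaptor CCM3 that brings kinases to the complex, had one of 0.13. Cttnbp2, a cortactin-binding partner of the striatins in neurons, had means of 6.93 ± 0.657 (KO) and 7.69 ± 0.255 FPKM (WT; SD, n = 3 and 4). Its KO range ended below its WT range (p = 0.0286 in the exact permutation test), as was found for 5.98% of all genes tested. Its relative Cttnbp2nl had the opposite order, with 27.4 ± 1.72 FPKM in KO and 24.6 ± 1.40 FPKM in WT, and its KO range began above its WT range (p = 0.0286 in the exact permutation test), as was found for 5.61% of all genes tested. In limma the log2 fold changes of these 2 were -0.13 and 0.15, with adjusted p-values of 0.525 and 0.441. Traf3ip3, an immune-cell adaptor with a low level, had the lowest estimate of the list, -0.49, with a wide interval from -0.997 to 0.01. Its level was 56.5% of that in WT, and its log2 difference was -0.935 in the 4 embryos with liver transcripts and 0.11 in the other 3.

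**Figure D5:**
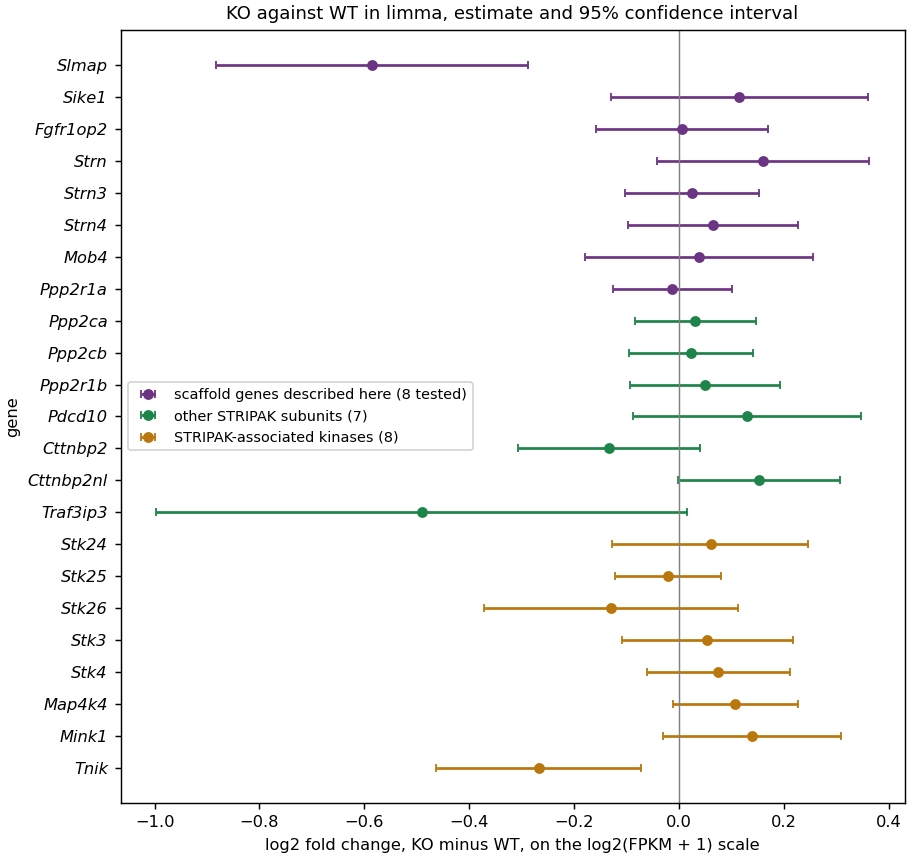
Log2 fold change, KO minus WT on the log2(FPKM + 1) scale, with 95% confidence intervals from limma for the 8 tested scaffold genes, 7 other STRIPAK subunits and 8 associated kinases. Slmap and Tnik are the genes whose interval does not reach 0, at -0.59 and -0.27, and no gene shown had an adjusted p under 0.05.

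None of the 8 kinases that STRIPAK binds or restrains had an adjusted p under 0.05 by limma. Their log2 fold changes ran from -0.27 to 0.14 with a median of 0.06. The Hippo kinases Stk3 (MST2) and Stk4 (MST1) had log2 fold changes of 0.05 and 0.07. The germinal center kinases Stk24, Stk25 and Stk26, which reach the complex through CCM3, had 0.06, -0.02 and -0.13. Of the MAP4K group, Map4k4 was higher in every KO embryo than in every WT embryo, at 179 ± 4.16 and 166 ± 7.20 FPKM (SD, n = 3 and 4; exact permutation test, p = 0.0571). Such an order was found for 5.61% of all genes tested. Mink1 had a log2 fold change of 0.14. Tnik, the remaining kinase of that group, had 10.21, 11.6 and 9.06 FPKM in KO and 11.9, 12.4, 12.6 and 13.1 FPKM in WT embryos. All KO embryos lay below all WT embryos, as was found for 5.98% of all genes tested, and Tnik was the 1 kinase of 8 with an unadjusted p under 0.05 in limma, a share near the 11.5% of all genes tested. Its log2 fold change was -0.27 with an SE of 0.08, and its adjusted p by limma was 0.348.

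Among 17 other PP2A subunits and regulators, led in level by Ppp2r3d at a mean of 170.9 FPKM and the PP2A activator Ptpa at 76.4 FPKM, the median log2 fold change was 0.00. Of the 17, 3 had an unadjusted p under 0.05, beside 11.5% of all genes tested. They are B55 regulatory subunits, and they did not go the same way. Ppp2r2a was higher in KO (60.5 ± 5.04 against 53.8 ± 0.670 FPKM, SD, n = 3 and 4), with a log2 fold change of 0.16. Ppp2r2b (6.61 ± 1.13 against 8.69 ± 0.547 FPKM) and Ppp2r2c (3.34 ± 0.434 against 4.37 ± 0.234 FPKM), which are known from neurons, were lower, with log2 fold changes of -0.36 and -0.31. Their adjusted p-values by limma were 0.392, 0.345 and 0.318. The remaining B55 gene of the list, Ppp2r2d, had no such unadjusted p, with a log2 fold change of 0.12 (adjusted p = 0.494 by limma). Of 6 other MOB family genes, led by the Hippo cofactor Mob1a at 31.2 FPKM and Mob2 at 23.1 FPKM, none had an unadjusted p under 0.05, and their median log2 fold change was -0.05.

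Reads can be shared or overlap between genes, which bears on how firmly these levels can be assigned. Slmap shares no stretch of 50 bases with a transcript of another gene, read in either direction. Gm24031 and Gm2178 overlap its span on the opposite strand, but share no such stretch with its transcripts. The library kit does not mark strand, so that where transcripts of 2 genes do overlap, their fragments cannot be told apart by strand. The spans of Strn3 and Fgfr1op2 overlap Ap4s1 and Ints13 on the opposite strand. Shared stretches made up 2.64% of the stretches of Fgfr1op2, 2.03% of Mob4, 1.77% of Strn and 1.11% of Strip2, and under 1% of those of Sike1, Strn3, Strn4 and Ppp2r1a. Identical bases in a row number at most 21 among the striatins, 17 between Sike1 and Fgfr1op2, and 23 between Ppp2r1a and Ppp2r1b. Ppp2r1b shares 20.4% of its stretches with Sik2, which lies on the opposite strand.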

How the data were processed

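RNA-seq libraries (TruSeq RNA v2) were made from 7 whole E11.5 embryos, 1 embryo per library, and genotypes were taken from the labels. The authors deposited 1 FPKM value per gene and embryo. The submitters' processing notes name Salmon, DESeq2, MultiQC and the GRCm38 build, without versions. The size factors computed here from the deposited FPKM by median ratio were all 1.00, so that these values were already comparable between embryos in that sense. The table also holds a mean signal per gene made by the authors (normalized counts over all embryos), used for counting error alone, and the authors' fold changes and p-values, which were not used. No FPKM column (0) was left unmapped.

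FPKM were compared on the log2(FPKM + 1) scale with limma 3.58.1 in R 4.3.3 (lmFit, eBayes with trend) over all 7 embryos without a covariate. Genes whose mean reached 1 FPKM were tested, and p-values were adjusted by Benjamini-Hochberg over all 16095. The study's own tests were replaced because of the small groups. Single values and shares were compared with exact two-sided permutation tests over the 35 splits of 7 embryos into 3 and 4. Embryos are separate animals, so that p-values measure the spread between animals. Litters are not given in the labels, and the number after KOAC is used as the label states it.

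The genes described and the lists (other STRIPAK subunits, associated kinases, PP2A, MOB family and markers of liver, skeletal muscle, heart, neural progenitors, neurons, erythroid cells and trophoblast) were chosen with earlier results of these data known. By rule, the text names all 9 genes, every other STRIPAK subunit and kinase (1 subunit and 1 share, counted among the 8 subunits and 6 shares, are not reported here), members of the PP2A and MOB lists with an unadjusted p under 0.05 or among the 2 highest, markers by list, and the 5 genes most like Slmap. Outside this rule, Ppp2r2d is named beside the other B55 genes. Positions, exons and shared stretches of 50 bases came from GENCODE M21. Alternatives were a pseudocount of 0.1, no filter, a minimum mean of 5 FPKM, a common sum of FPKM, median-ratio size factors, the KOAC number as a block, Xist or Afp as a covariate, sums per symbol, subsets of embryos and each embryo left out, and, added after seeing the data, muscle or neural progenitor marker sums as covariates and another denominator for Slmap.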

Additional observations from a re-analysis of the deposited data

Results flagged for a closer look

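Of 55 values examined in the 4 WT embryos, 1 had an embryo set apart from the rest, where 2.75 would be set apart by chance. It was Ppp2r5a, a B56 regulatory subunit of PP2A, for which the WT embryo KOAC10-2 had 47.4 FPKM, and its gap to the next embryo was 0.833 of the range of the WT embryos, past Dixon's critical value for 4 values. KOAC10-2 is among the embryos that nearly lacked liver transcripts, and whether this has a part in the value was not tested.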

How the results depend on the processing

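With 3 against 4 embryos the smallest exact p is 0.0286, and few genes passed adjustment under any setting. The 6 genes of all tested with an adjusted p under 0.05 became 10 with Afp as a covariate, 13 in the embryos numbered 10, 17 in the 4 embryos with liver transcripts, and 2 with the muscle or the neural progenitor marker sum as a covariate. Leaving out each embryo gave 7 to 12, the 12 without the WT embryo KOAC8-1. None of the 8 genes tested passed under any of the 18 alternatives fixed earlier or the 2 added later, and Strip2, tested only without the filter, did not pass there. Slmap was lower in KO in all 21 fits, with log2 fold changes from -0.67 to -0.51 when an embryo was left out and adjusted p-values by limma from 0.0905 (Afp as a covariate) to 0.569 over the former. With the marker sums as covariates its estimate moved to -0.29 and -0.36, with adjusted p-values of 1.00 and 0.722. With the KOAC number as a block it was -0.54. The labels do not say what that number marks.

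The difference in Slmap per striatin lay between -0.0900 and -0.0725 when an embryo was left out, where the smallest possible exact permutation p is 0.0667 or 0.1, and was -0.0694 in the embryos numbered 10 and -0.0962 in the 4 with liver transcripts, where it is 0.333. Estimates near 0 changed sign. Fgfr1op2 had -0.007 under the common sum, -0.027 with Afp as a covariate, -0.015 in the 4 embryos with liver transcripts, and -0.044 to 0.058 when an embryo was left out. Mob4 had -0.243 with the muscle and -0.026 with the neural progenitor marker sum, and -0.059 to 0.118 when an embryo was left out. Strn3 and Strn4 had -0.005 and -0.031 with the muscle marker sum, where the estimates of Sike1 and Strn were 0.297 and 0.336 (0.183 and 0.275 with the neural progenitor sum), and Ppp2r1a 0.002 in the embryos numbered 10 and -0.035 to 0.017 when an embryo was left out. The shares of Strn3 and Strn4 differed by 0.318 and -0.741 percentage points in the 4 embryos with liver transcripts, by -2.43 and 2.06 in the embryos numbered 10, and by -1.18 to 0.219 and -0.777 to 0.999 when an embryo was left out, and that of Strn by 0.117 to 0.754. The cause was not tested, and no estimate that changed sign had passed the test. A common sum of FPKM moved the median of all genes by -0.01 on the log2 scale.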
